A study of Mus musculus with 6 samples.

Results

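The genes described here encode the proteins of the cytosolic ribosome. They were taken by symbol, as every gene called Rpl or Rps with a number and at most the letter a, x or l after it, together with Rplp0, Rplp2 and Rpsa. S6 kinases and pseudogenes were left out. Of 18193 genes measured by a probe set with a single gene symbol, 46 met this rule, 24 of the large subunit (Rpl) and 22 of the small subunit (Rps). A gene with several probe sets was represented by the one with the highest mean over the 6 arrays. For 30 of the 46 genes the name of the probe set used ended in _x_at, _s_at or _a_at, called suffixed here. Of the 46 symbols, 15 also stood on probe sets with several symbols. How specific the probe sets are to their gene was not tested. A further 28 symbols of this pattern stood only on probe sets that carry several symbols and are not named with values. The 46 genes are therefore not the whole ribosome.

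Splenic germinal centre B cells were collected with magnetic beads from mice immunised with sheep erythrocytes, and their total RNA was hybridised to Affymetrix mouse genome-wide expression arrays. ImHABCL6/Uchl1 mice (3 arrays) carried a transgene for Uchl1, a deubiquitinating enzyme, on top of the ImHABCL6 allele. ImHABCL6 mice (3 arrays) carried that allele alone, which expresses tagged BCL6, the repressor that defines germinal centre B cells, from the immunoglobulin heavy chain locus. Both groups thus had deregulated BCL6 and both were immunised. The promoter of the Uchl1 transgene, the number of founder lines and the age of the mice are not known from the labels. Values are log2 expression levels, and differences are ImHABCL6/Uchl1 minus ImHABCL6 on that scale. Replicates were taken as separate mice from the design text.

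A ribosome holds one copy of nearly every ribosomal protein, so their genes are transcribed at high and matched levels in growing cells. Their mRNAs begin with a C followed by a stretch of pyrimidines, the 5′ terminal oligopyrimidine (TOP) motif, through which mTOR and the RNA-binding protein LARP1 control their translation as a group. Germinal centre B cells divide rapidly and make many new ribosomes. An array reads mRNA level only, so translational control through the TOP motif lies outside these measurements.

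The bases around the annotated transcription starts are shown because the TOP motif is defined there. Of the 46 genes, 40 had an entry in the RefSeq promoter table of GRCm38.p6, which gives 250 bases before and 50 after each start. In 8 of the 40 the start base was a C followed by at least 4 pyrimidines, or 20% of them, against 2.94% of the 14367 measured genes with an entry. Runs of at least 8 pyrimidines within 20 bases of a start occurred in 19 of 40 genes, or 47.5%, against 19.0% of all. The letters CGGAAG on either strand, the core of sites for ETS-family factors, occurred anywhere in the window for 29 of 40, or 72.5%, against 27.1% of all. Annotated starts can be some bases away from the used ones, so the first count depends on the annotation. The following sequences run from 25 bases before the start to 20 bases from it, with the pyrimidine run that opens the transcript in capitals. The first 5 genes were taken from the 8 with such a start, and the paralogs Rps27l and Rpl39l do not have one. Most of the 40 genes had no such start at the annotated base.
Rps18: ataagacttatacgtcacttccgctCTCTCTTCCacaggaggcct
Rps10: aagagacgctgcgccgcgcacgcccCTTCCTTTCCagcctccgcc
Rplp2: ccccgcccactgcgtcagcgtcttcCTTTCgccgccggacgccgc
Rps6: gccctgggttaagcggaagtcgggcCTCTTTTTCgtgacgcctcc
Rpl35: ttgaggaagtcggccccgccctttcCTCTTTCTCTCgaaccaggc
Rps27l: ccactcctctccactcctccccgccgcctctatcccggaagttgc
Rpl39l: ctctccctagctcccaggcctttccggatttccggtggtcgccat
The windows lie at chr17:33955646-33955690 on the minus strand (Rps18), chr17:27635225-27635269 on the minus strand (Rps10), chr7:141447626-141447670 on the plus strand (Rplp2) and chr4:86857348-86857392 on the minus strand (Rps6). Those of the others are chr2:39005112-39005156 on the minus strand (Rpl35), chr9:66946061-66946105 on the plus strand (Rps27l) and chr16:10170203-10170247 on the plus strand (Rpl39l), all in GRCm38.p6. The runs measured 9, 10, 5, 9 and 11 bases in the order shown. A match describes these letters and does not show that a site is used.

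Uchl1 itself read 5.96, 5.87 and 6.02 in the ImHABCL6/Uchl1 arrays and 5.01, 4.999 and 5.02 in the ImHABCL6 arrays, so the gene went with the labels on all 6. These were weak signals, as the array medians over all probe sets were 5.56 to 5.67. The difference of Uchl1 was 0.94 (SE 0.12, limma adjusted p = 0.638), and an exact two-sided permutation test gave p = 0.1, the smallest that 3 against 3 allows. Of 12 germinal centre B-cell markers 9 were measured, and their mean was 10.64 to 11.28 in ImHABCL6/Uchl1 arrays and 10.83 to 11.004 in ImHABCL6 arrays. The 14 measured of 18 erythroid markers averaged 8.98, 10.93 and 10.29 in ImHABCL6/Uchl1 arrays against 10.51, 11.05 and 11.46 in ImHABCL6 arrays, and 13 of the 14 were lower with the transgene. Mean levels of the other marker lists were 7.54 to 7.79 in ImHABCL6/Uchl1 and 7.47 to 7.87 in ImHABCL6 arrays for plasma cells, 5.03 to 5.36 and 5.15 to 5.28 for T cells, and 5.76 to 6.37 and 5.62 to 5.97 for macrophages. For neutrophils they were 5.21 to 5.63 and 5.26 to 6.69, for platelets 8.002 to 9.27 and 8.30 to 9.22, and for NK cells 4.24 to 4.48 and 4.40 to 4.499. In bulk RNA, fewer cells of a type and less RNA per cell cannot be told apart. ImHABCL6/Uchl1 replicate 2 had a narrower distribution than the other arrays. Its SD over all probe sets was 2.30, against 2.39 to 2.45 on the others, and its 95th percentile was 10.35 against 10.55 to 10.65.

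No ribosomal protein mRNA was called different between ImHABCL6/Uchl1 and ImHABCL6 cells, and most differences were small. None of the 46 genes passed the multiple-testing threshold, none had an unadjusted p under 0.05, and none separated the groups. The median difference was -0.06, or 1.04-fold, and 30 of the 46 genes differed by less than 0.1 in either direction. Lower values in ImHABCL6/Uchl1 cells were more frequent than higher ones, at 36 of 46 genes, or 78.3%, and this lean turned round when 1 array was left out. The large subunit had a median of -0.07 with 20 of 24 genes lower, and the small subunit a median of -0.05 with 16 of 22 lower.

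The threshold was a Benjamini-Hochberg adjusted p of 0.05 in limma, fitted over all 18193 genes, and it was passed by 0 genes or 0.0% of all. Over all genes the unadjusted p was under 0.05 for 4.94% (3.85% lower and 1.09% higher) and the groups did not overlap for 9.44% (5.49% lower and 3.95% higher). A change of at least 2-fold, which 0 of the 46 genes had, was found for 0.89% of all genes on the lower and 0.0385% on the higher side. Over all genes the difference was below 0 for 49.4%, and the median difference was 0.0029. Adjusted p-values of the 46 genes lay at 0.998 or above. The 95% interval of the difference included 0 for all 46. For the 34 genes of strong signal described next, the limits of these intervals lay between -0.76 and 0.38, so that none reached a change of 1 on the log2 scale. A p that misses the threshold does not show that the groups were alike.

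**Figure D1:**
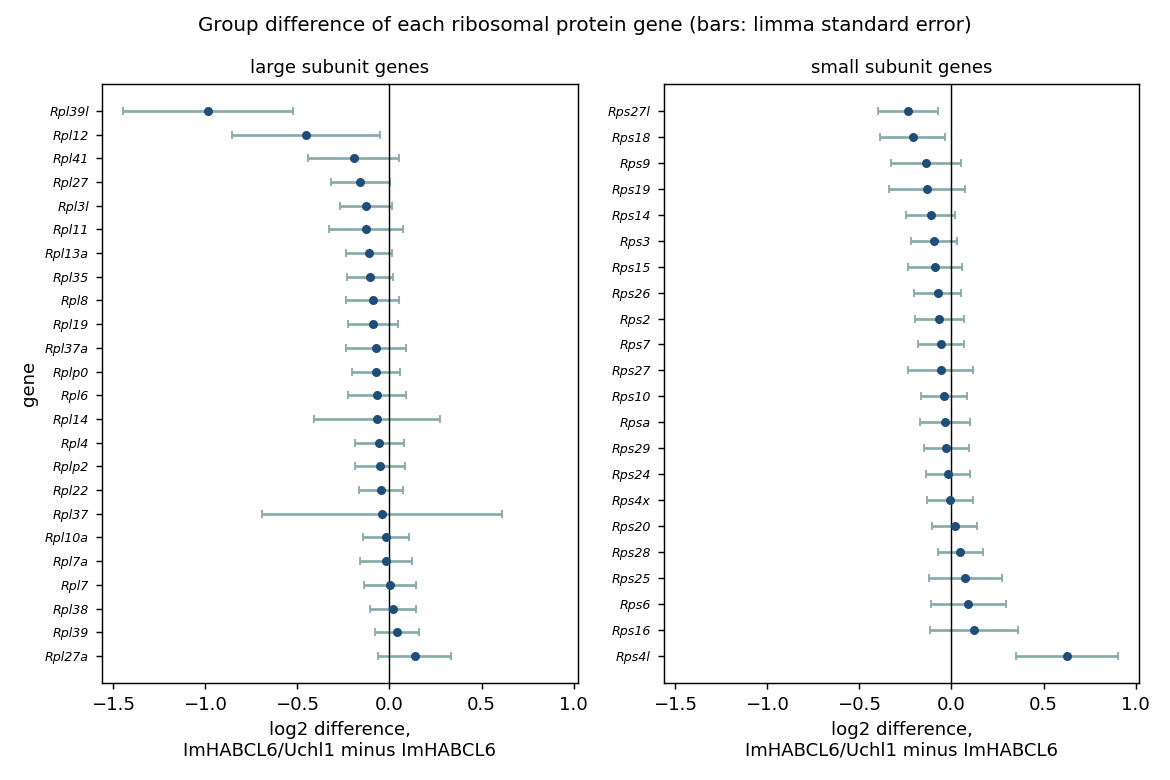
Log2 difference (ImHABCL6/Uchl1 minus ImHABCL6) of each ribosomal protein gene, large subunit on the left and small subunit on the right, with bars for the limma standard error (n = 3 arrays each). Most genes lie just left of 0, and Rpl39l at -0.98 and Rps4l at 0.63 lie farthest out.

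The chosen probe sets fell into 2 classes of signal, with a gap in means between 10.02 and 12.02. Probe sets of Rps27l that were not chosen lay within this gap, at 11.73 and 11.80. In 34 genes the mean over the arrays was 12.02 to 14.60, and in 12 it was 3.59 to 10.02. The highest value of any probe set was 15.14, so the strong class lay near the top of the scale. Signal depends on the probes as well as the transcript, and no order of abundance between genes is read from it. The 12 weaker genes were Rpl12, Rpl14, Rpl27a, Rpl37, Rpl39, Rpl39l, Rpl3l, Rps16, Rps25, Rps27, Rps4l and Rps6. The limit of 12 was chosen after the values were seen.

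The 34 genes of strong signal differed little between arrays, apart from 1 array. Their median level was 14.12, 13.86 and 14.14 in the ImHABCL6/Uchl1 arrays, against 14.16, 14.16 and 14.06 in the ImHABCL6 arrays. ImHABCL6/Uchl1 replicate 2 alone was low, and replicates 1 and 3 of that group lay within the range of the ImHABCL6 arrays. The per-array median averaged 14.04 ± 0.16 in ImHABCL6/Uchl1 and 14.13 ± 0.06 in ImHABCL6 arrays (SD, n = 3 each). Lower values in ImHABCL6/Uchl1 cells were found for 30 of the 34, or 88.2%, and their median difference was -0.07. Other genes of strong signal also leaned lower, at 191 of 330, or 57.9%, with a median of -0.02. The pooled SD within groups had a median of 0.11 for these genes, against 0.17 for the 330 other genes of strong signal and 0.20 for all genes. The 330 were not matched in level. Their mean levels had a median of 12.58, against 14.10 for the 34, and the part of level in these comparisons was not tested.

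Replicate 2 of ImHABCL6/Uchl1 had the lowest value of all 6 arrays for 33 of the 34 genes. The remaining gene was Rpl38, a large subunit protein, named after its values were seen. For the same array the share was 49.1% among the 330 other genes of strong signal, which had lower levels, and 28.0% among all genes. The margin to the next lowest array ran from 0.02 to 0.57, with a median of 0.16. It was widest for Rpl41, the smallest ribosomal protein, which read 14.52, 13.62 and 14.45 in ImHABCL6/Uchl1 arrays and 14.56, 14.41 and 14.19 in ImHABCL6 arrays. Rps19, the gene most often mutated in Diamond-Blackfan anaemia, read 13.81, 13.13 and 13.75 against 13.83, 13.75 and 13.50. In both genes replicate 2 stood below every other array and the other values of the groups overlapped.

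Without that array the lean turned round. Then 33 of the 46 genes were higher in ImHABCL6/Uchl1 cells and 13 lower, with a median difference of 0.03, and among the 34 genes of strong signal 25 were higher and the median was 0.02. Other lists shifted as well. Higher values rose from 6 to 13 of 15 elongation factors and other TOP genes, and from 3 to 10 of 11 ribosomal protein chaperones. They rose from 6 to 9 of 9 germinal centre B-cell markers, and fell from 3 to 0 of 4 platelet markers. Array weights, which gave replicate 2 the lowest weight of 0.297 and ImHABCL6/Uchl1 replicate 3 the highest of 3.30, left 22 of 46 lower with a median of 0.0037. Quantile normalization, which gives every array the same distribution, left 31 of 46 lower, or 67.4%, with a median of -0.02. Over all genes quantile normalization gave 47.6% lower and a median of 0.0092. With the erythroid score of each array as a covariate 42 of 46 were lower, with a median of -0.17. Among the 25 genes named by rule, leaving out replicate 2 turned the direction of 11. No gene passed under any of these settings. The median over all genes is drawn beside each setting in the figure of settings below.

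**Figure D2:**
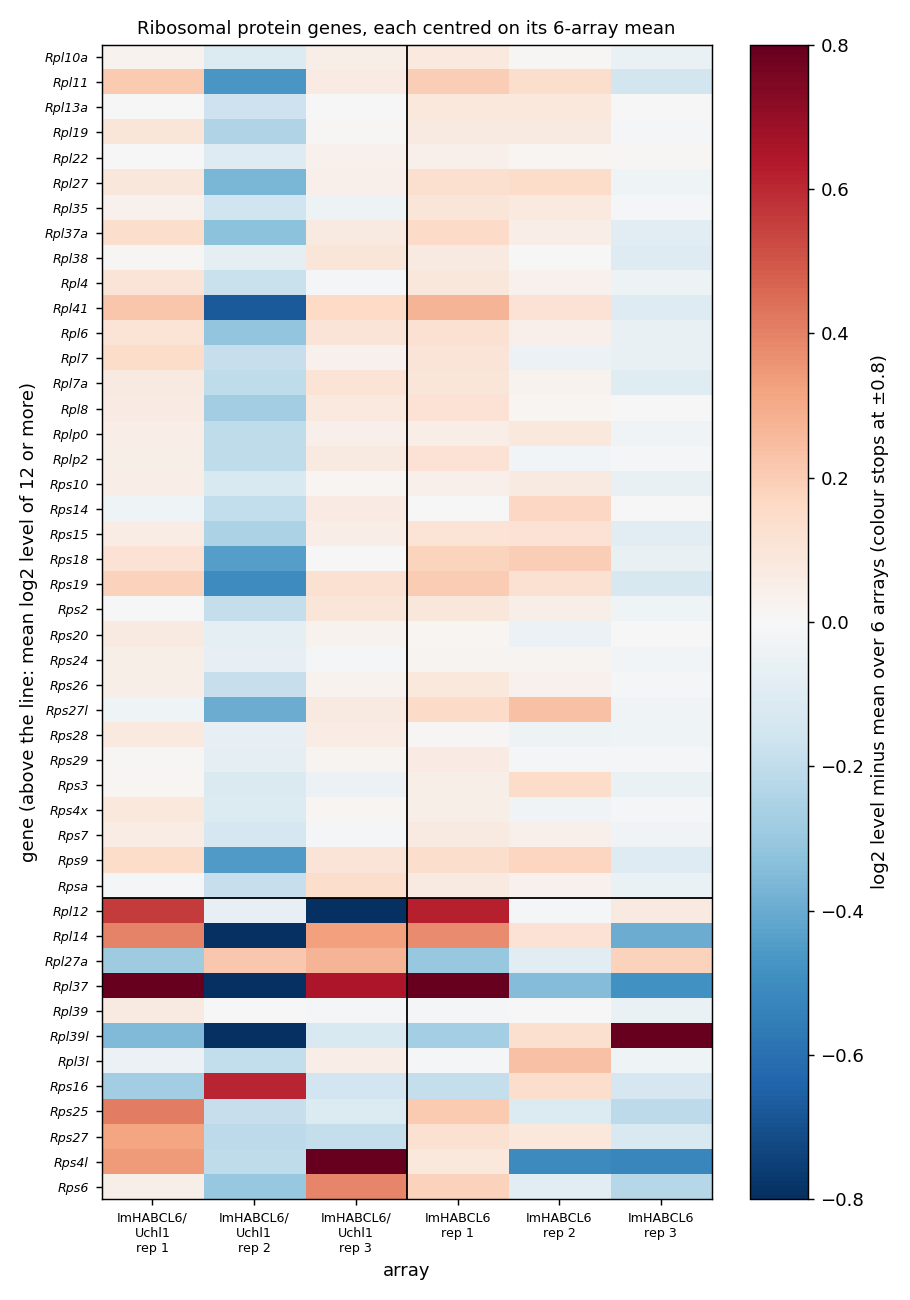
Log2 level of each of the 46 genes (rows) on each array (columns), minus the gene's mean over 6 arrays; ImHABCL6/Uchl1 arrays are left of the vertical line. Above the horizontal line, at 34 genes of strong signal, the column of ImHABCL6/Uchl1 replicate 2 is blue for all genes, and below it the 12 weaker genes show larger and less shared deviations.

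**Figure D3:**
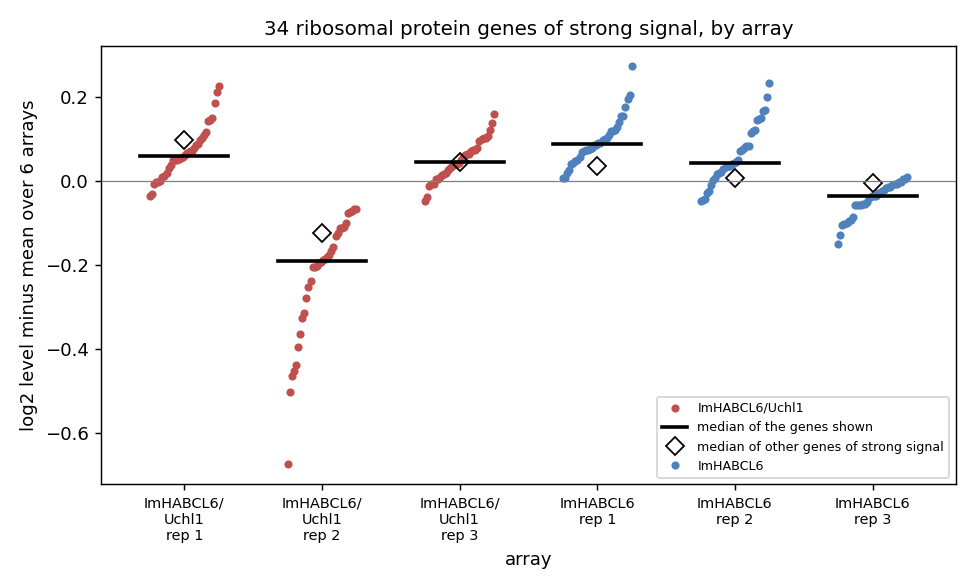
Deviation of each of the 34 strong-signal genes from its own mean over 6 arrays (log2 units), sorted within each array, with the median as a bar and the median of the 330 other strong-signal genes as a diamond. In ImHABCL6/Uchl1 replicate 2 the genes lie between -0.67 and -0.07 with a median of -0.19, and the diamond lies at -0.12.

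**Figure D4:**
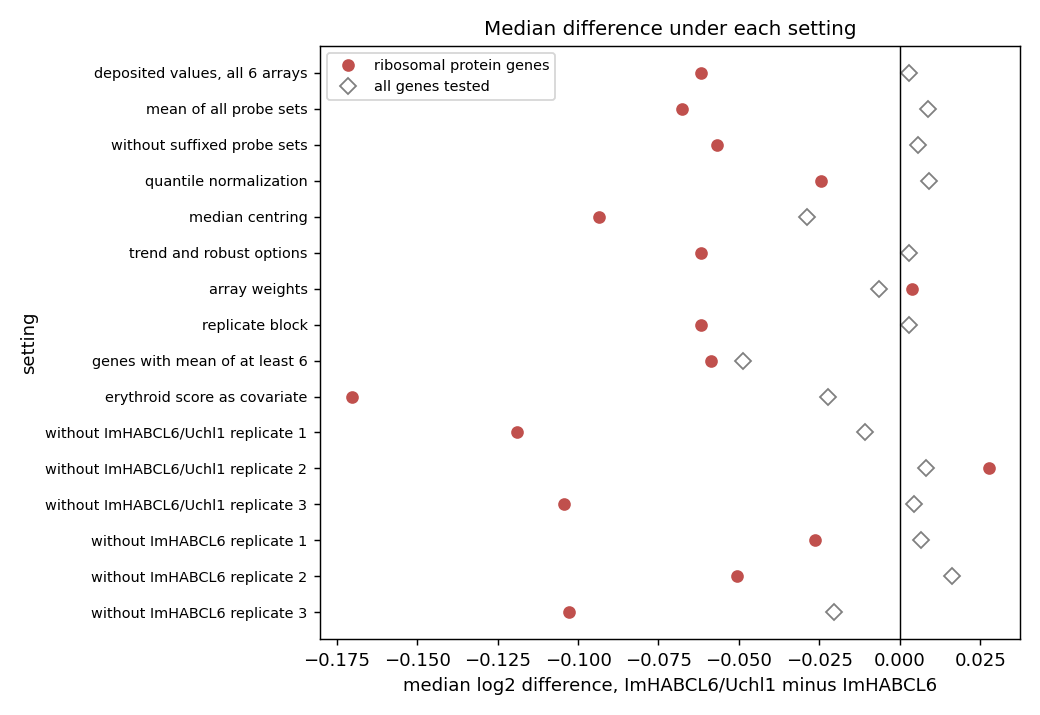
Median log2 difference (ImHABCL6/Uchl1 minus ImHABCL6) of the ribosomal protein genes (filled) and of all genes tested (open) under each setting. The ribosomal protein median runs from -0.17 with the erythroid covariate to 0.03 without ImHABCL6/Uchl1 replicate 2.

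The mRNAs for proteins of the stalk that recruits elongation factors to the large subunit differed by less than the spread between arrays. Rplp0, the base of the stalk, read 14.24, 13.98 and 14.23 in ImHABCL6/Uchl1 arrays and 14.24, 14.27 and 14.16 in ImHABCL6 arrays, a difference of -0.07 (SE 0.13, limma adjusted p = 0.998). Rplp2, one of the acidic proteins bound to it, read 14.49, 14.24 and 14.52 against 14.56, 14.42 and 14.43, a difference of -0.05 (SE 0.14). Replicate 2 was the lowest array in both, and the groups overlapped. Without it the differences were 0.011 for Rplp0 and 0.035 for Rplp2.

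Rpl11 belongs to the particle of RPL5, RPL11 and the small ribosomal RNA of the large subunit that, when free, binds MDM2 and stabilises p53. It read 13.20, 12.53 and 13.06 in ImHABCL6/Uchl1 arrays against 13.18, 13.13 and 12.84 in ImHABCL6 arrays, with a difference of -0.13 (SE 0.20), and 0.074 without ImHABCL6/Uchl1 replicate 2. Rps7, another MDM2-binding protein, differed by -0.06 (SE 0.12). Of the 8 genes listed for proteins at the exit of the peptide tunnel 4 were measured. In mRNA 3 of these were lower: Rpl35 (-0.11), Rpl19 (-0.09) and Rpl4 (-0.05), with Rpl39 at 0.04. None passed, and without replicate 2 of ImHABCL6/Uchl1 1 of the 4 was lower.

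Ubiquitin ligases mark 4 small subunit proteins, Rps2, Rps3, Rps10 and Rps20, on stalled ribosomes, and deubiquitinases remove the mark. The differences of their mRNAs lay within 0.10 of 0. Rps3, at the mRNA entry channel, read 13.80, 13.67 and 13.73 in ImHABCL6/Uchl1 arrays against 13.83, 13.93 and 13.72 in ImHABCL6 arrays, a difference of -0.10 (SE 0.13). Rps10 differed by -0.04 (SE 0.13), Rps2 by -0.06 (SE 0.13) and Rps20 by 0.02 (SE 0.12). The direction of Rps3 and Rps20 changed with the choice of probe sets, at 0.10 and -0.06 without suffixed probe sets. Those values came from much weaker probe sets, with means of 8.77 and 4.81 against 13.78 and 14.34 for the chosen ones. Without ImHABCL6/Uchl1 replicate 2, 1 of the 4 was lower. Precursors of ubiquitin, among them the ubiquitin fusion Rps27a, had no probe set with a single symbol in the annotation used and were not analysed here.

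Rps6, the substrate of S6 kinase downstream of mTOR, was read by a probe set of medium signal. It read 9.91, 9.56 and 10.26 in ImHABCL6/Uchl1 arrays and 10.05, 9.77 and 9.64 in ImHABCL6 arrays, a difference of 0.09 (SE 0.20) with overlapping groups. Across settings the difference went both ways. It was 0.37 with array weights (unadjusted p = 0.0418, limma adjusted p = 0.303) and 0.27 without ImHABCL6/Uchl1 replicate 2, and it was -0.07 with the erythroid covariate and -0.08 without ImHABCL6/Uchl1 replicate 3. Rpsa, a small subunit protein also known as a laminin receptor, read 14.41, 14.23 and 14.55 against 14.48, 14.45 and 14.36, a difference of -0.04 (SE 0.14), and turned to 0.08 with array weights. Rps28, near the mRNA exit channel, differed by 0.05 (SE 0.12) and Rps29 by -0.03 (SE 0.12).

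Diamond-Blackfan anaemia is a failure of red-cell production caused by loss of 1 copy of a ribosomal protein gene. Of 18 such genes listed, 11 were measured, 10 of these had the lower mean in ImHABCL6/Uchl1 cells and 0 passed, and their median of -0.06 was that of all 46 genes. The largest differences among them were those of Rpl27 (-0.16, SE 0.16), Rps19 (-0.13, SE 0.21) and Rpl11. ImHABCL6/Uchl1 replicate 2 was the lowest array for all 11. Without it 3 of the 11 were lower and the median was 0.013, with Rpl27 at -0.016, Rps19 at 0.087 and Rpl11 at 0.074. Erythroid markers averaged 8.98, 10.93 and 10.29 in the ImHABCL6/Uchl1 arrays, where the strong-signal ribosomal protein genes had medians of 14.12, 13.86 and 14.14. In the ImHABCL6 arrays the markers averaged 10.51, 11.05 and 11.46, and the medians were 14.16, 14.16 and 14.06. Adding the erythroid average to the fit as a covariate gave 42 of the 46 genes lower and a median of -0.17, without the share over all genes beside it. The part of red-cell RNA in the ribosomal protein values was not tested.

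The list of paralogs, Rpl3l, Rpl39l, Rps4l and Rps27l as measured, held 4 of 5 genes, of which 3 were lower. Rpl39l and Rps4l among them gave the largest differences of the 46 genes, from weak signals and with large errors. Rpl39l, a paralog of Rpl39 best known from the testis, read 5.54, 4.89 and 5.77 in ImHABCL6/Uchl1 arrays and 5.62, 6.02 and 7.51 in ImHABCL6 arrays. Its difference of -0.98 (SE 0.46, limma adjusted p = 0.998) rested on the high value of ImHABCL6 replicate 3 and was -0.42 without it. Rps4l, named as a paralog of Rps4x, read 6.45, 5.90 and 6.91 against 6.19, 5.60 and 5.59, so that ImHABCL6 replicate 1 lay above ImHABCL6/Uchl1 replicate 2. Its difference of 0.63 (SE 0.28, limma adjusted p = 0.998) had the smallest unadjusted p of the 46 genes, 0.0521, and ranged from 0.38 to 0.89 with single arrays left out. Rps4x itself differed by -0.01. With array weights Rps4l had a limma adjusted p of 0.149, the lowest of any of the 46 genes under any setting.

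Rps27l, a paralog of Rps27 whose human gene is induced by p53, had the largest negative difference of the strong class. It read 11.99, 11.63 and 12.10 in ImHABCL6/Uchl1 arrays and 12.18, 12.26 and 11.996 in ImHABCL6 arrays, a difference of -0.24 (SE 0.16, limma adjusted p = 0.998). Its 2 other probe sets gave -0.32 and -0.28. ImHABCL6 replicate 3 lay below ImHABCL6/Uchl1 replicate 3, so the groups overlapped, and without ImHABCL6/Uchl1 replicate 2 the difference was -0.10. Rps27 differed by -0.06. Rpl3l, the paralog of heart and skeletal muscle, read at most 3.83 on any array, near the bottom of the scale.

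Other probe sets of these genes mostly gave the same lean, though not all did. Examples of 2 kinds of departure, in the lowest array or in direction, are described next. Of the 54 probe sets not chosen to represent a gene, 39 were lower in ImHABCL6/Uchl1 cells, the median was -0.06 and 0 passed. Over all probe sets of the array 20548 of 45101 were lower, and the median was 0.018. Over the 110 probe sets that carry several symbols including a ribosomal protein, 87 were lower and the median was -0.06. Replicate 2 of ImHABCL6/Uchl1 was the lowest array for 59 of 66 probe sets with a mean of at least 12, and for 88 of the 110 shared ones. Among probe sets with a mean under 10 it was the lowest for 13 of 31. Over all probe sets of the array platform it was the lowest for 10812 of 45101.

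The first departure was in the lowest array and not in direction. It was a set of 4 weaker probe sets that were low in ImHABCL6/Uchl1 replicate 3 instead. They were picked after their values were seen, as those with a margin above 1 in that array. The one of Rpl12 is the probe set that represents the gene. For Rpl12, a protein at the base of the stalk with a single probe set of 1 symbol, the values were 8.71, 8.08 and 6.97 in ImHABCL6/Uchl1 arrays and 8.77, 8.13 and 8.22 in ImHABCL6 arrays. The difference was -0.45 (SE 0.40), and 0.021 without replicate 3. Weak probe sets of 3 small subunit genes did the same, with differences of -0.71 for Rps24, -0.52 for Rps9 and -0.35 for Rps10. Rps24 read 7.30, 6.79 and 5.33 against 7.13, 6.99 and 7.45, Rps9 read 7.85, 7.26 and 6.16 against 7.78, 7.40 and 7.66, and Rps10 read 6.92, 6.65 and 5.41 against 7.03, 6.49 and 6.51. In each of the 4, replicate 3 was the lowest array by 1.08 to 1.46, while the chosen probe sets of Rps24, Rps9 and Rps10 placed that array among the others, at 14.23, 13.66 and 14.17. Which transcripts these weak probe sets read was not tested.

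An example of the second departure, in direction, was a weak probe set of Rps18, a small subunit head protein. It gave 0.19, while the other 5 probe sets of this gene gave -0.05 to -0.21. Rps18 was not the only gene with such a probe set. A strong probe set of Rps9, with a mean of 12.94, gave 0.10 against -0.14 for the chosen one. A weak probe set of Rpsa gave 0.16 against -0.04. The chosen probe set of Rps18 read 14.09, 13.54 and 13.98 in ImHABCL6/Uchl1 arrays and 14.15, 14.17 and 13.92 in ImHABCL6 arrays. Its difference was -0.21 (SE 0.18). Without ImHABCL6/Uchl1 replicate 2 it was -0.045. Rpl37 had the widest spread within groups, at a pooled SD of 1.11. It read 10.02, 7.52 and 9.78 in ImHABCL6/Uchl1 arrays and 10.01, 8.78 and 8.64 in ImHABCL6 arrays, a difference of -0.04 (SE 0.65) that was 0.62 with array weights. The remaining genes of smallest p on the higher side were Rpl27a at 0.14 (SE 0.20), Rps16 at 0.12 (SE 0.24) from a probe set with a mean of 4.18, and Rps25 at 0.08 (SE 0.20).

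**Figure D5:**
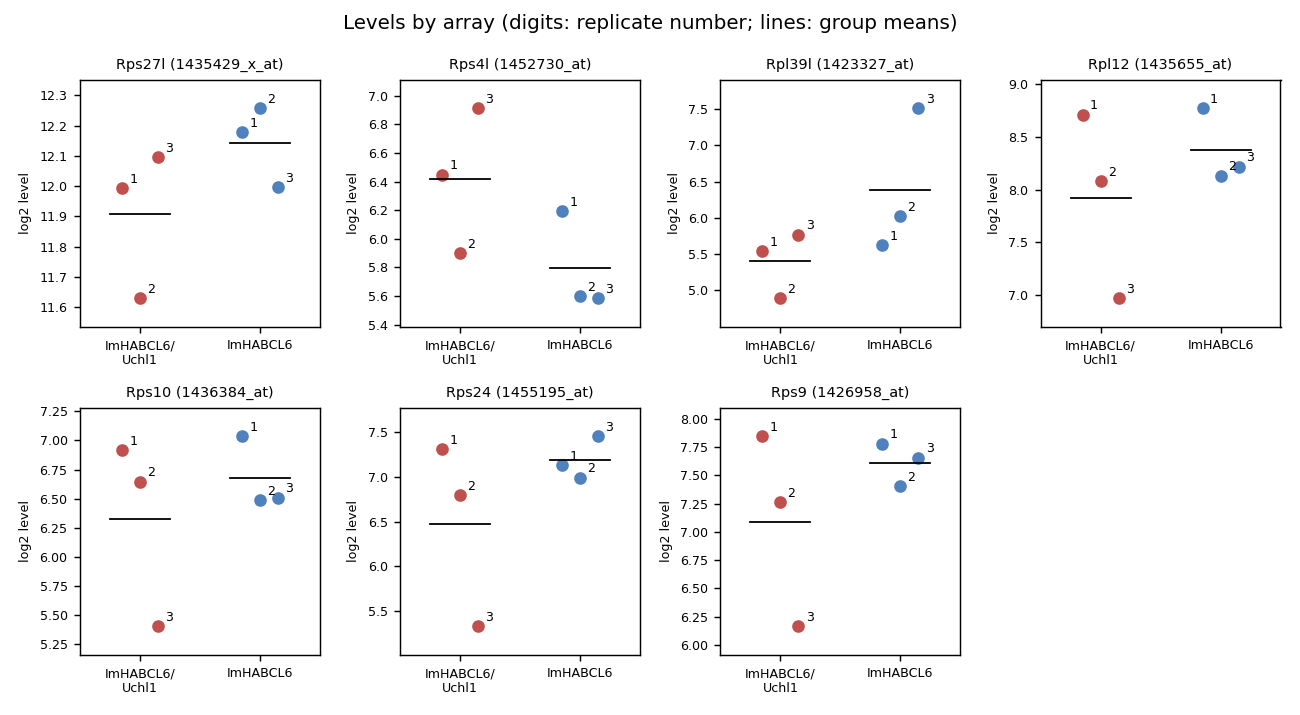
Log2 levels by array for 3 paralogs (Rps27l, Rps4l and Rpl39l) and for the 4 weaker probe sets of Rpl12, Rps10, Rps24 and Rps9; digits give the replicate and lines the group mean. The ImHABCL6/Uchl1 point of replicate 3 is the lowest in the last 4 panels, and the groups overlap in all 7.

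Other genes of the same machinery did not pass either. Ribosomal proteins under other symbols were measured for 4 of 7, with 3 lower and a median of -0.06, and Fau, a fusion precursor of a small subunit protein, differed by -0.03. Without ImHABCL6/Uchl1 replicate 2 none of these 4 was lower. Elongation factors and other genes with TOP mRNAs had 9 of 15 measured members lower and a median of -0.01: Eef1a1 differed by 0.01, Eef2 by -0.01 and Tpt1 by -0.01, while Vim, a filament protein with a TOP mRNA, read 10.65, 10.65 and 10.59 against 10.17, 10.41 and 10.53, a difference of 0.26 (SE 0.14) with separate groups. Without replicate 2 of ImHABCL6/Uchl1 2 of these 15 were lower, and Vim was at 0.25. Of 11 importins and dedicated chaperones of ribosomal proteins 8 were lower, the median was -0.08, and the importin Ipo7 differed most (-0.26, SE 0.22). ImHABCL6/Uchl1 replicate 2 was the lowest array for 9 of the 11, and without it 1 of 11 was lower, the median was 0.13 and Ipo7 was at -0.0058. Of 13 measured transcriptional and translational regulators of these genes 8 were lower, and their median was -0.22, against 6 of 13 and 0.049 without that array. Among them Larp1b, a relative of the TOP-binding protein LARP1, read 8.60, 9.32 and 9.27 in ImHABCL6/Uchl1 arrays and 9.39, 9.54 and 9.76 in ImHABCL6 arrays, a difference of -0.50 (SE 0.21) with separate groups, and Yy1, a transcription factor of ribosomal protein promoters, differed by -0.25 (SE 0.15). Without that array Larp1b was at -0.62 and Yy1 at -0.14. No gene of these lists passed (limma adjusted p of 0.998 or above).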

How the data were processed

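RNA from germinal centre B cells of the spleen was measured on 6 Affymetrix mouse arrays, 3 of ImHABCL6/Uchl1 and 3 of ImHABCL6 mice. The deposited values are log2 signals per probe set, made by the authors with RMA in Partek per the submitters' processing notes, which name no versions. No further normalization was applied. Of 45101 probe sets, 34945 had 1 gene symbol in the platform annotation, 932 had several, 9211 had none and 64 were controls. Some controls are also counted among those with none. Of the 18193 genes, 18031 matched the RefSeq gene table and 0 symbols changed. Each gene was read by its probe set with the highest mean. Group means were compared in limma 3.58.1 (R 4.3.3) with lmFit and eBayes, two-sided, with Benjamini-Hochberg adjustment over 18193 genes at 0.05; the script was tested on simulated data. The number of arrays limits the precision. Ribosomal protein genes named with values were the 6 of smallest unadjusted p in each direction, the members of 5 role lists (stalk, MDM2 binding, stalled-ribosome ubiquitination, single-function members and paralogs), the 3 highest and 3 lowest by mean, the 3 of largest pooled SD and the 3 with the largest disagreement between probe sets; further genes serve as examples chosen after their values were seen. The genes, lists and tests were chosen with earlier results of these data known. Alternatives changed the probe sets used, the normalization, the low-signal filter, the array weights, the replicate block, an erythroid covariate and the arrays included. Medians over all probe sets of these genes, over probe sets with several symbols, and over each gene list without ImHABCL6/Uchl1 replicate 2 were alternatives chosen after seeing the data. Start sequences came from RefSeq promoters of GRCm38.p6 (Python 3.11.15).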

Additional observations from a re-analysis of the deposited data

How the results depend on the processing

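No ribosomal protein gene passed under any setting run. Across 25 named genes and the alternatives that kept all 6 arrays, 195 of 214 differences kept their direction. Many of these could not turn. The trend and robust options of limma (25 values), the replicate block (25) and the low-signal filter (22) leave each difference as it was. All 19 reversals came from the other alternatives. Genes lower in ImHABCL6/Uchl1 cells numbered 16 of 25 without suffixed probe sets, against 48.7% of all genes. They numbered 22 of 46 with array weights, and 13 to 39 with single arrays left out, where the median of all 46 ran from -0.12 to 0.03. Shares over all genes are not given for these settings. Median centring gave 39 of 46 lower, or 84.8%, against 57.1% of all genes. With the replicate block the median stayed at -0.06, which this balanced block cannot change, and 0 genes passed. Replicate numbers were not stated to pair mice, and same-numbered arrays had correlations of deviations of 0.43, 0.19 and -0.26, so they were not treated as paired. Directions turned for Rps20 (-0.020), Rps3 (0.023) and Rpsa (0.064) with the mean of all probe sets, for Rps18 (0.19), Rps20 (-0.057) and Rps3 (0.099) without suffixed probe sets, for Rpl37 (0.015) and Rps24 (0.0089) with quantile normalization, and for Rps20 (-0.014) with median centring. They turned for Rpl37 (0.62), Rplp2 (0.040), Rps16 (-0.10), Rps2 (0.034), Rps29 (0.0062) and Rpsa (0.078) with array weights, and for Rps20 (-0.037), Rps25 (-0.25), Rps28 (-0.010) and Rps6 (-0.072) with the erythroid covariate, and the cause was not tested. With single arrays left out, ranges crossed 0 for Rpl11 (-0.26 to 0.074), Rpl12 (-0.85 to 0.021), Rpl37 (-0.50 to 0.76), Rplp0 (-0.12 to 0.011), Rplp2 (-0.10 to 0.035), Rps10 (-0.077 to 0.014), Rps16 (-0.15 to 0.29), Rps2 (-0.13 to 0.016), Rps20 (-0.012 to 0.060), Rps24 (-0.045 to 0.013), Rps25 (-0.11 to 0.20), Rps29 (-0.043 to 0.0018), Rps6 (-0.081 to 0.27), Rps9 (-0.24 to 0.054) and Rpsa (-0.11 to 0.048). Where a group was left with 2 arrays the fit pooled the spread. Weak probe sets and values near the top of the scale limit what differences can be seen.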
